A study of Mus musculus with 2 samples.

Results

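The microRNA genes Mir21a and Mir22 were followed in skeletal muscle of newborn mice. They are 2 of the 1973 microRNA genes counted in each library, chosen by name and matched through their Ensembl gene IDs, ENSMUSG00000065455 and ENSMUSG00000065529. The 2 libraries, of RNA shorter than 30 bases, came from pups of strain B6NCrl on postnatal day 0, with muscle from 1 pup in each sample and no treatment or genetic change named in the labels. The samples are numbered as biological replicates 1 and 2 but carry the same donor record, so the spread between them may be partly technical. They form 1 group, and the only comparison the design allows is of level, between genes and between the 2 libraries.

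MicroRNAs are short RNAs that guide Argonaute proteins to messenger RNAs and lower their output, mainly through pairing of the seed, bases 2 to 8 counted from the 5′ end. miR-21 is known for its rise in growing, inflamed and injured tissue, where it represses growth brakes such as Pdcd4. miR-22 is known as an abundant microRNA of heart and skeletal muscle that represses Hdac4 and Sirt1 and takes part in hypertrophy and the response to stress.

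Both genes lie on chromosome 11 (GRCm38, the assembly also called mm10), each within the exon of a longer transcript. Mir21a spans 86584067 to 86584158 on the minus strand, inside the untranslated region at the end of Vmp1, an autophagy gene, in the exon from 86583865 to 86585451. Mir22 spans 75463716 to 75463810 on the plus strand, in an exon of the noncoding host gene Mir22hg that is also used by a noncoding transcript of Tlcd2. Of the 365 genes that reached 10 counts in each library (called detected below), 10 lay in an untranslated region of a protein-coding gene, 60 in another exon, 180 in an intron and 115 outside any host gene. Among the 30 most abundant genes, Mir21a was the only one in an untranslated region. Neither gene belongs to a cluster. The nearest microRNA gene was Mir301 at 528.8 kb from Mir21a and Mir3971 at 87.6 kb from Mir22, while 171 of the 365 detected genes (46.8%) had another microRNA gene within 10 kb.

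The mature sequences of both genes and of the 2 annotated relatives of miR-21 are shown because the seed decides which messages a microRNA can pair with. They are taken from RefSeq on GRCm38.p6, 5′ to 3′, with the seed in capitals.
miR-21a-5p: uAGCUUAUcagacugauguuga
miR-21a-3p: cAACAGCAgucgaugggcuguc
miR-22-5p: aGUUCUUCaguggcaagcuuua
miR-22-3p: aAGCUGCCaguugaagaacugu
miR-21b: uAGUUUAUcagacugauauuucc
miR-21c: uAGCUUAUcagacugguacaa

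miR-21a-5p and miR-22-3p, the arms usually described as the active ones, have different seeds that open with the same 4 bases, AGCU at positions 2 to 5. Of 1674 different mature sequences in the RefSeq table, 15 (0.896%) carry these bases there. Within that table, which holds mature sequences of 1058 genes and is not complete, the full seed of miR-21a-5p recurred in 1 other gene, Mir21c, and the other 3 member seeds in 0. Counted from the 5′ end, miR-21b differs from miR-21a-5p in the seed by C4U and further on by G18A, G21U and A22C. The differences of miR-21c all follow the seed and are A16G, G18A, U19C, U20A and G21A.

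The hairpin from which both arms of miR-22 are cut shows what 1 count stands for. It is 95 bases long at chr11:75463716-75463810, plus strand, with the 5′ arm (positions 19 to 40) and the 3′ arm (57 to 78) in capitals.
Mir22 hairpin: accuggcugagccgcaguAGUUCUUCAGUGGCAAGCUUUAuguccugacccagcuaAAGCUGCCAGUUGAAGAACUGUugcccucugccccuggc

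A count is given per gene and not per arm, so the 2 arms of a hairpin cannot be told apart. All 4 mature forms of Mir21a and Mir22 are 22 bases long, so counts of the 2 genes were compared without a correction for length. Comparisons between genes are of read counts. Whether reads of different sequences stand for equal numbers of molecules was not tested. No stretch of 20 bases of either hairpin recurs in another annotated microRNA hairpin of the table, and neither makes a mature sequence that another gene also makes. Reads fitting more than 1 place, 28.01% and 26.9% of the reads of replicates 1 and 2, were set apart by the authors. Whether any of them came from these 2 genes cannot be read from the counts.

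The libraries held 16398945 and 21037937 reads, and the annotated strand of microRNA genes received 7955914 and 10816295 of them. Levels below are in CPM, counts scaled to that total, and 3 counts, the limit that a count of 0 allows, equal 0.377 and 0.277 CPM. That total holds only reads that fit 1 place, and genes with near-identical copies can lose reads by this. Ranks, shares and folds over the median gene therefore hold among such reads only and may favour single-copy genes. Intervals and limits cover counting error only. The muscle identity of the samples is carried by Mir206, a microRNA specific to skeletal muscle, which ranked first in both libraries. The 8 skeletal muscle marker genes with a row took 11.6% ± 0.951 of counts (SD, n = 2). Of the 8 neuronal genes with a row, the 3 Mir124a genes had 0 counts in both among reads that fit 1 place. Reads that fit more than 1 of these 3 genes would have been set apart, so the zeros do not show absence. The neuronal list was not absent, as Mir128-1, Mir128-2 and Mir132 were detected and the list summed to 966 and 965 CPM.

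Mir22 was the more abundant of the pair. It had 115393 counts in replicate 1 and 164080 in replicate 2, which are 14504 CPM (95% exact binomial interval 14421 to 14587) and 15170 CPM (15097 to 15243). The values lay close together, and the gene ranked 18 in each library. Its mean level was 14837 CPM ± 471 (SD, n = 2), 1.48% ± 0.0471 of all microRNA counts. Mir206 exceeded it 7.67-fold ± 0.402, and it stood 182-fold ± 42.5 above the median detected gene (SD, n = 2).

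Mir21a was also among the abundant genes but was not equally so in the 2 samples. It had 71344 counts in replicate 1 and 53474 in the more deeply sequenced replicate 2, which are 8967 CPM (8902 to 9033) and 4944 CPM (4902 to 4986). Replicate 1 was thus the high sample, 1.81-fold above replicate 2 in CPM, and the rank was 24 there and 33 in replicate 2. The mean level was 6956 CPM ± 2845 (SD, n = 2), 0.696% ± 0.285 of counts. Mir206 exceeded Mir21a 11.9-fold in replicate 1 and 24.4-fold in replicate 2.

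**Figure D1:**
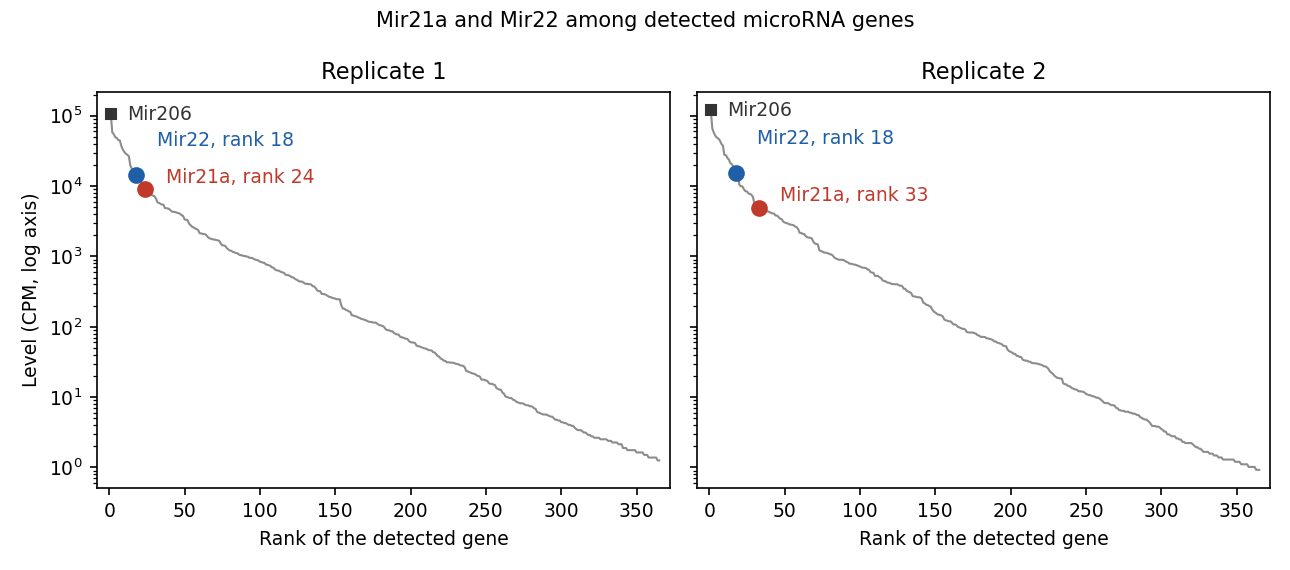
Level (CPM, log axis) against rank for the 365 detected genes in replicate 1 (left) and replicate 2 (right). Each grey line is all detected genes, the square is Mir206, the blue point is Mir22 and the red point is Mir21a. Mir22 holds rank 18 in both libraries, and Mir21a moves from rank 24 to rank 33.

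The order of the pair was the same in both libraries, but the distance was not. Mir22 exceeded Mir21a 1.62-fold in replicate 1 (95% counting interval 1.602 to 1.63) and 3.07-fold in replicate 2 (3.04 to 3.099), a mean of 2.34 ± 1.03 (SD, n = 2). This ratio is taken within a library and does not depend on how libraries are scaled. It was 1.90 times as large in replicate 2, and 5 genes ranked between the pair in replicate 1 against 14 in replicate 2. Together the 2 genes took 2.35% of the counts of replicate 1 and 2.01% of those of replicate 2.

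Both genes were read from the annotated strand alone, with 0 counts on the opposite strand in both libraries. Those zeros allow an opposite-strand share of up to 0.0042% and 0.00561% for Mir21a and 0.0026% and 0.00183% for Mir22 in replicates 1 and 2. Such strand purity was common, since 324 of the 365 detected genes (88.8%) and 22 of the 30 most abundant had 0 opposite-strand counts in both. Over all genes, 10.7% and 11.9% of counts lay on the opposite strand.

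The relatives of miR-21 were near or at the limit of detection. Mir21b on chromosome 3 had 1 and 0 counts, and Mir21c on chromosome 8, which shares the seed of miR-21a-5p, had 0 and 0. The zeros of Mir21c place it under 0.377 and 0.277 CPM in replicates 1 and 2 among reads that fit 1 place. Genes without a sequence in the table were not searched for this seed.

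To compare the libraries gene by gene, their sizes were scaled by TMM, the trimmed mean of M-values, which shifts every log2 ratio (replicate 1 over 2) by -0.25 relative to library totals. The test was an exact binomial test, two-sided, on all 365 detected genes with Benjamini-Hochberg adjustment. A gene was called at an adjusted p under 0.05 and at least a 2-fold difference. The test compares 2 libraries and not conditions, with counting error as its only error term. By this rule 7.4% of detected genes were called, 6.3% as higher in replicate 1 and 1.1% as higher in replicate 2. The split was 23 against 4 genes, and 41 against 1 with library totals. Neither member was called.

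Mir21a was higher in replicate 1, with a log2 ratio of 0.61 (95% counting interval 0.60 to 0.63), a 1.53-fold difference. Mir22 was lower in replicate 1, with a log2 ratio of -0.31 (-0.32 to -0.30), which is 1.24-fold. Both passed the adjusted p of the binomial test without the fold minimum, as did 61.1% of detected genes. With library totals the log2 ratios were 0.86 for Mir21a and -0.06 for Mir22. The directions were the same with library totals, DESeq2 size factors, other count minimums and unstranded counts.

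Against the spread of other genes the 2 members stood at different places. The median absolute log2 ratio of detected genes was 0.31, which is about the size of the difference of Mir22, and 80 of the 365 lay further from 0 than Mir21a, 58 of them with a higher ratio. For the 84 genes whose mean level was 1000 CPM or more, the median absolute log2 ratio was nearly the same, at 0.30. Their median log2 ratio was -0.23. Of these 84, 7 (Mir21a included) were at least as far from 0 as Mir21a, and 60 of the 84 were below 0, as Mir22 was. With library totals these counts were 4 and 39 of the 84. In CPM the coefficient of variation over the 2 libraries was 40.9% for Mir21a and 3.17% for Mir22, against medians of 9.81% for those 84 genes and 16.5% for all detected genes. Of the 84, 3 had a larger coefficient than Mir21a and 19 a smaller one than Mir22. The square root of edgeR's common dispersion over all detected genes, a coefficient of variation between the libraries beyond counting error, was 0.257.

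**Figure D2:**
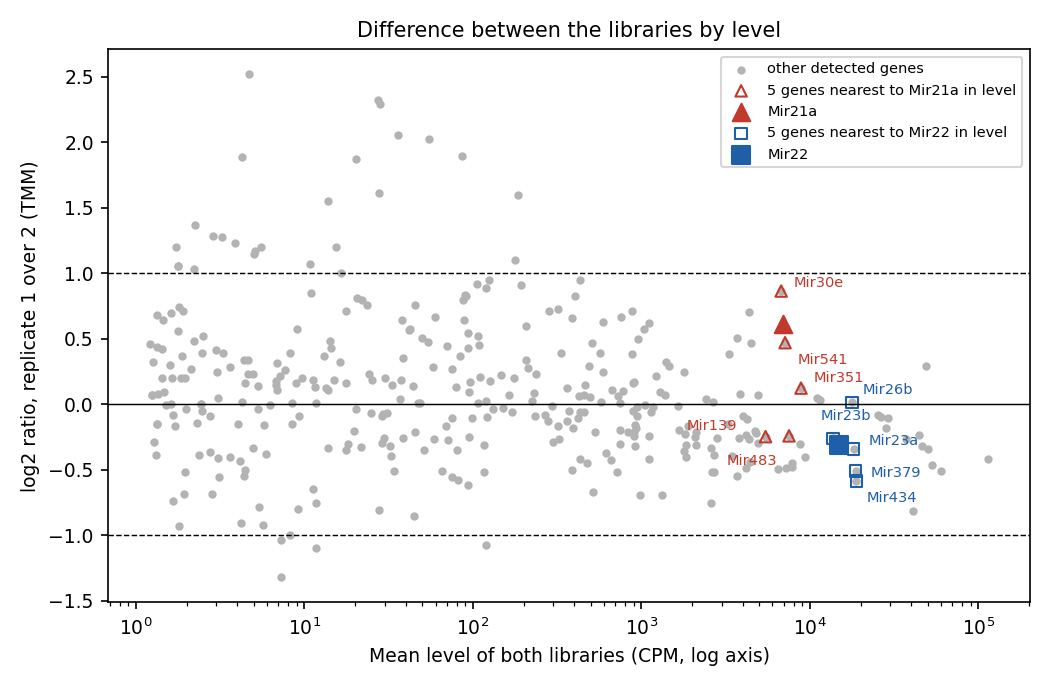
Log2 ratio of replicate 1 over replicate 2 after TMM scaling against the mean level (CPM, log axis) of each of the 365 detected genes. Filled symbols are Mir21a (0.61) and Mir22 (-0.31), open symbols are the 5 genes nearest to each in level, and dashed lines mark a 2-fold difference, which neither member reaches.

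The genes most like each member were those nearest in log2(CPM + 1) over the 2 libraries, a likeness over 2 samples that describes levels alone. Nearest to Mir21a was Mir541, of the imprinted Dlk1-Dio3 domain, with 8858 and 5392 CPM in replicates 1 and 2. Mir30e, in an intron of Nfyc, came next with 9233 and 4276 CPM. These 2 genes are also the next above and below Mir21a in mean level, at 7125 CPM ± 2451 and 6754 ± 3505 (SD, n = 2), so the order of the 3 was not resolved beyond their spread. Both had more in replicate 1, at log2 ratios of 0.47 for Mir541 and 0.87 for Mir30e. Choice by level in both libraries favours the direction of Mir21a, so this is no separate finding. The other 3 near genes, Mir483 in Igf2 (7533 and 7508 CPM), Mir351 of the chromosome X cluster (9990 and 7733) and Mir139 (5454 and 5459), were further away, and the CPM of Mir483 and Mir139 were nearly equal in the 2 libraries.

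Mir22 stood closest to the paralogs Mir23b, with 13650 and 13791 CPM, and Mir23a, with 17615 and 18820 CPM. Their log2 ratios were -0.26 and -0.34, and likeness to Mir22 in this follows from the choice by level in both libraries. Mir26b (19441 and 16230 CPM) and the Dlk1-Dio3 genes Mir379 (16997 and 20423 CPM) and Mir434 (16685 and 21122 CPM) followed. By mean level the next gene above Mir22 was Mir26b at 17835 CPM ± 2271 and the next below was Mir23b at 13720 ± 99.8 (SD, n = 2). Mir26b was above Mir22 and Mir23b below it in both libraries, so this order held in each.

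For context, 36 microRNA genes linked to growth and stress of muscle and other tissues were listed, the members included. Of the 34 with a row, 30 were detected, and the list took 5.13% ± 0.325 of counts (SD, n = 2). Mir22 and Mir21a alone made up 42.5% of the list, and the remaining genes took 2.95% of counts. Both shares rest on reads that fit 1 place, and Mir24-1 and Mir1a-2 had no row. List genes with near-identical copies, such as the Mir133a and Mir1a genes, are lower limits, so the part of the remaining genes may be understated. The median level of the detected genes was 123 CPM, against 86.99 CPM for all detected genes, and 19 of the 30 were at or above that median.

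Its 5 highest genes were Mir23a, Mir22, Mir21a, Mir214 and Mir199b. Mir214, a mesenchymal microRNA, had 5428 and 4355 CPM in replicates 1 and 2, and Mir199b, of the miR-199 family, had 1161 and 599. Below them stood Mir210, the microRNA induced by low oxygen, with 470 and 379 CPM. The p53-driven genes were lower still, with Mir34c at 174 and 75.9 CPM, Mir34a at 106 and 83.8 and Mir34b at 8.17 and 5.55. Of the inflammation-linked genes, Mir223 had 528 and 403 CPM, Mir155 60.3 and 30.1, Mir146 118 and 68.4, and Mir146b 5 and 0 counts. In the miR-29 family, which represses matrix genes, Mir29a had 181 and 145 CPM and Mir29c 89.4 and 68.6. Mir29b-1 had 15 and 4 counts and Mir29b-2 had 5 and 6. Genes with near-identical copies, such as Mir29b-2, Mir199b and the Mir133a and Mir1a genes, hold only reads that fit 1 place and are lower limits.

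**Figure D3:**
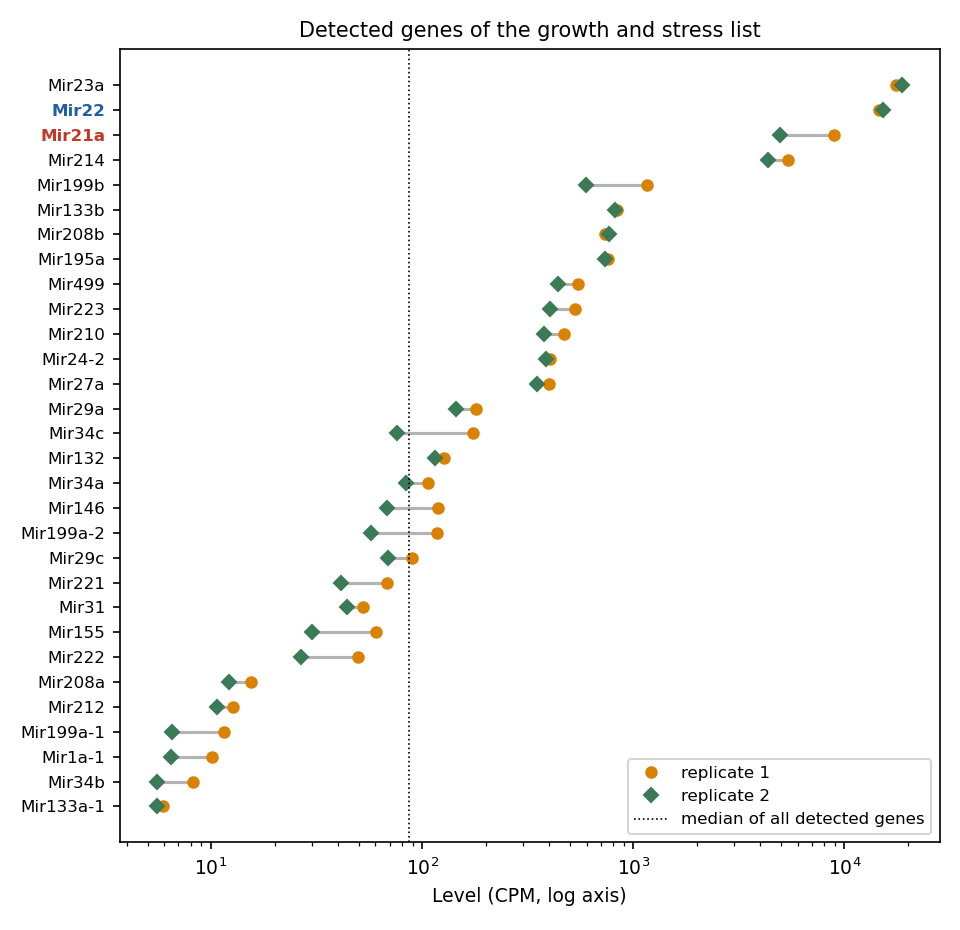
Level (CPM, log axis) of the 30 detected genes of the growth and stress list in replicate 1 (circles) and replicate 2 (diamonds), with the median of all detected genes as a dotted line. Mir22 and Mir21a stand just below Mir23a at the top, and the gap between the libraries is visibly wider for Mir21a than for Mir22.

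Between the libraries, 0 of the 30 detected genes of this list were called, where 7.4% of all detected genes were. By the adjusted p alone (binomial test, before any fold minimum), 11 of the 30 were higher in replicate 1 and 6 of the 30 in replicate 2. Over all 365 detected genes these were 110 (30.1%) and 113 (31%). The median log2 ratio of the list was 0.08 against 0.01 for all detected genes, and 21 of the 30 were above 0 with TMM and 27 with library totals. Mir34c was the furthest apart of the 30, with a log2 ratio of 0.95.

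Several marker lists of other cell types summed higher in replicate 1, as Mir21a did. Their ratios are in CPM by library totals, where Mir21a was 1.81-fold higher in replicate 1 and the median detected gene 1.20-fold. The erythroid list (2 of 2 genes with a row detected) summed to 583 and 286 CPM, a ratio of 2.04. Most of this sum came from Mir451a (548 and 260 CPM), while Mir144 had 34.6 and 25.3 CPM. The epithelial and skin list (7 of 7) summed to 531 and 334 CPM, a ratio of 1.59, with most of the sum from the keratinocyte gene Mir203 (292 and 268 CPM). The 5 genes of the miR-200 family in this list, markers of epithelium, were each called higher in replicate 1 by the binomial test, with log2 ratios after TMM from 1.20 for Mir141 to 2.52 for Mir200a. The other 2 genes of the list, Mir203 and Mir205, went the other way after TMM, with log2 ratios of -0.12 and -0.07. The leukocyte list (4 of 5 detected, with Mir142b at 1 and 0 counts and no row for Mir142) summed to 752 and 546 CPM, a ratio of 1.38. Most of this was Mir223 (528 and 403 CPM). After TMM, 3 of the 4 detected leukocyte genes were above 0, and Mir150 was below (log2 ratio -0.21). The fibroblast and mesenchymal list (4 of 4) summed to 6717 and 5017 CPM, a ratio of 1.34. Most of this was Mir214 (5428 and 4355 CPM), whose log2 ratio after TMM was 0.07, while all 4 genes were above 0. No gene of these 4 lists with a row was at 0 in both libraries, and their part in the difference of Mir21a was not tested. The liver and gut list (3 of 4) went the other way, with 165 and 228 CPM, a ratio of 0.723, and its gene Mir122 was called higher in replicate 2 (log2 ratio -1.07). Ratios were 1.11 for the smooth muscle list, 1.12 for cartilage, 1.00 for the neuronal list and 1.28 for the single cardiac marker.

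Mir21a itself was more abundant than most of these lists. It stood 11.9-fold and 9.05-fold above the summed leukocyte genes in replicates 1 and 2, and 1.34-fold and 0.985-fold relative to the summed fibroblast and mesenchymal genes. The skeletal muscle markers (7 of 8 detected) had a summed ratio of 0.89, which is carried by Mir206 (107144 and 120690 CPM), while 5 of the 7 were higher in replicate 1 by library totals and 3 of the 7 after TMM. For Mir126a, the single endothelial marker with a row, the ratio was 0.949, close to the 0.956 of Mir22. In bulk tissue, more cells of a type and more of a microRNA per cell cannot be told apart.

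**Figure D4:**
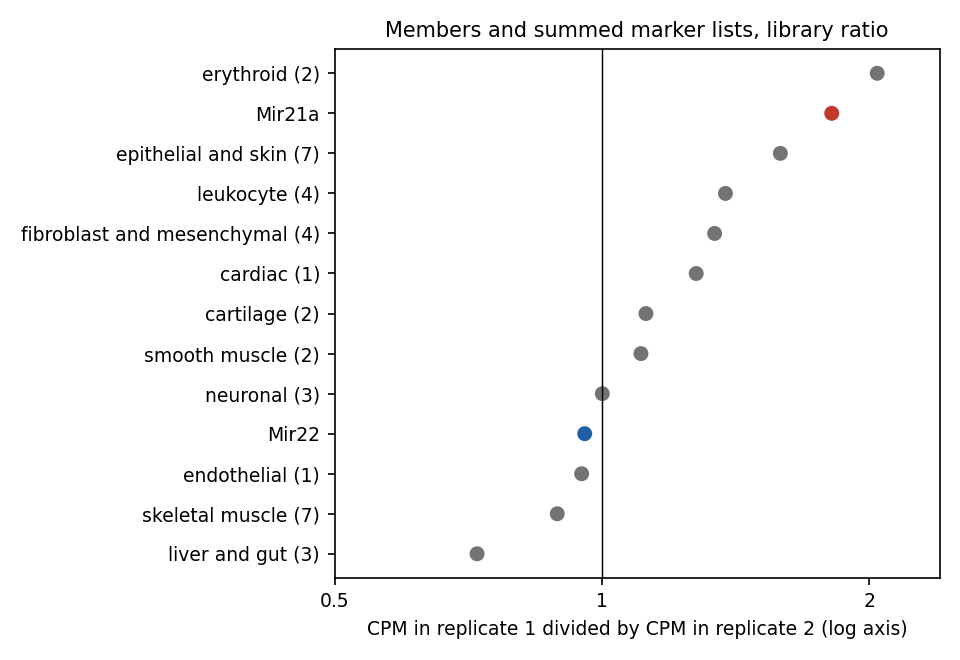
CPM in replicate 1 divided by CPM in replicate 2 (log axis) for Mir21a (red), Mir22 (blue) and the summed level of each marker list (grey, with the number of detected genes). Mir21a at 1.81 lies between the epithelial and skin list (1.59) and the erythroid list (2.04, mostly Mir451a). Mir203 holds most of the epithelial sum but differed little (292 and 268 CPM), unlike the miR-200 genes. Mir22 at 0.956 lies beside the endothelial marker (0.949).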

How the data were processed

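The authors deposited, for each of the 2 libraries, raw read counts per microRNA gene in 3 columns, read as both strands, the annotated strand and the opposite strand because the last 2 add up to the first for all 1973 genes. That the column with most counts is the annotated strand is an inference. The readme text deposited with each table names mm10 and GENCODE M4, while an aligner or counter is not given in the sources used here. The 4 rows that name no gene (51.5% and 48.6% of reads in replicates 1 and 2, on the annotated strand) stayed out of totals and tests.

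Symbols and positions came from GENCODE M21 on GRCm38 by gene ID without version (1894 of 1973 matched), and sequences from RefSeq on GRCm38.p6. That sequence table is not complete, so shared mature forms are those it shows. Ratios used TMM (edgeR 4.0.16, factors 1.09 and 0.918, R 4.3.3) and exact binomial tests (scipy 1.17.1, Python 3.11.15). The single group gives edgeR no contrast to test. Means and SDs are over 2 libraries.

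The members and lists were chosen with earlier results of these data known. Named genes are the members, their seed relatives, the 5 nearest in level, the next in rank, Mir206, and of the growth and stress list the 5 highest and those under 10 counts in both libraries. Mir210, the Mir34 genes, Mir155, Mir146, Mir126a, Mir142b, Mir203, Mir141, Mir200a, Mir122, Mir301 and Mir3971 were named after their values were seen. Of 70 listed symbols, 64 matched a row. A second list that was planned is not reported here. Alternatives were other strands, denominators, size factors (DESeq2 1.42.0), count and fold minimums, lists without shared mature forms, and each replicate left out. The test was checked on simulated libraries.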

Additional observations from a re-analysis of the deposited data

How the results depend on the processing

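Of 38 alternative values, 29 stayed within the spread or on the same side of the threshold, and no direction reversed. Some of the 29 could not have moved. With 2 libraries, a level with 1 replicate left out always falls within the SD. The unstranded ratio of the pair was also fixed, because both genes had 0 opposite-strand counts. Scaled to all reads of a library in place of microRNA counts, the mean level was 3446 for Mir21a and 7418 for Mir22. For Mir22, whose replicates lay close, unstranded counts gave 13159 CPM and a total without Mir206 gave 16748. The growth and stress list took 4.55% with unstranded counts. Genes called between the libraries, 27 as reported, numbered 42 with library totals, 15 of 278 tested with a count minimum of 50 and 72 with a fold minimum of 1.5, by which Mir21a (log2 ratio 0.61) was called too. Over the scalings, strands and count minimums, the log2 ratio of Mir21a ran from 0.60 to 0.86 and that of Mir22 from -0.32 to -0.06. Leaving out each replicate gave 4944 to 8967 CPM for Mir21a, 14504 to 15170 for Mir22 and 1.62 to 3.07 for their ratio. No test is left with 1 library. No paired analysis was possible because the samples form 1 group.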

Other observations

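Among the 84 genes whose mean level was 1000 CPM or more, 6 others differed between the libraries at least as far as Mir21a after TMM scaling, and they were named after their values were seen. Higher in replicate 1 were Mir30e (log2 ratio 0.87), Mir30a (0.71; 5770 and 2981 CPM) and Mir20a (0.62; 1436 and 788 CPM). Lower in replicate 1 were Mir431 (-0.81; 33048 and 48970 CPM), Mir1193 (-0.76; 2137 and 3043 CPM) and Mir496a (-0.69; 1122 and 1530 CPM), all on chromosome 12. None of the 84 reached 2-fold after TMM scaling. With library totals, Mir30e reached a log2 ratio of 1.11.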
